A study of Homo sapiens with 24 samples.

Results

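MM1S is an established human multiple myeloma line, a plasma cell cancer known for a translocation that drives the transcription factor MAF. The libraries described here came from MM1S cells kept for 6 h with YKL-5-124, a code-named compound used in a series titled for CDK7 inhibition, or with its vehicle DMSO. They make up 6 of the 24 libraries of the series, 3 with YKL-5-124 at 98 nM and 3 with DMSO, chosen by their labels alone. The labels put the same 98 nM on the DMSO libraries. The other 18 libraries were MM1S at 24 h and H929, another myeloma line, at 6 h and 24 h (83 nM on its labels). All cells were grown in multiwell plates and lysed for total RNA, and QuantSeq libraries were made, which are primed at the poly(A) tail and sequence the 3′ end of a transcript. The labels did not say whether the 3 replicates were cultured separately, and the p-values here rest on a spread between libraries that may be technical. The values come from a single line at a single dose.

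CDK7 works with cyclin H (CCNH) and MAT1 (MNAT1) as the kinase module of the general transcription factor TFIIH. It phosphorylates the tail of the largest subunit of RNA polymerase II when a gene is started, and as the CDK-activating kinase it also phosphorylates the CDKs that drive the cell cycle. Plasma cells carry a heavy load of secretory protein and depend on a few lineage transcription factors such as IRF4 and XBP1, and kinases of transcription have been studied in myeloma as drug targets.

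The values are FPKM as deposited, fragments scaled to transcript length and library size, on a scale where the ERCC spike-ins, synthetic RNAs added in known amount, stood at nearly the same level in every library (149229 to 150501 FPKM in sum with YKL-5-124 and 145319.8 to 149362 FPKM with DMSO). Less or more RNA in a library as a whole therefore shifts all of its genes. Each change is for that reason also given after median-of-ratios rescaling, which divides a library by the factor of its typical gene and is called rescaled below. The factor was 0.906, 0.784 and 0.804 in the YKL-5-124 libraries, against 1.21, 1.22 and 1.03 in the DMSO libraries. The means were 0.831 ± 0.0653 and 1.15 ± 0.111 (SD, n = 3 each), a fold of 0.722, and the groups did not overlap (two-sided p = 0.1 by an exact permutation test, the lowest p possible with 3 libraries a group). Fewer cells and less RNA per cell cannot be told apart in such bulk libraries. The spike-ins scattered more in YKL-5-124 replicate 2 than in the other libraries of this comparison, with an SD of 0.964 on the log2 scale against 0.229 to 0.305. Summed gene FPKM over summed spike-in FPKM was 6.75 to 8.12 with YKL-5-124 and 7.80 to 10.03 with DMSO, and these ranges overlapped. Another library with scattered spike-ins (SD 0.58) was a DMSO library of MM1S at 24 h, which shared in the estimate of the spread. Sequencing depth is unknown, since the files hold no counts.

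**Figure D1:**
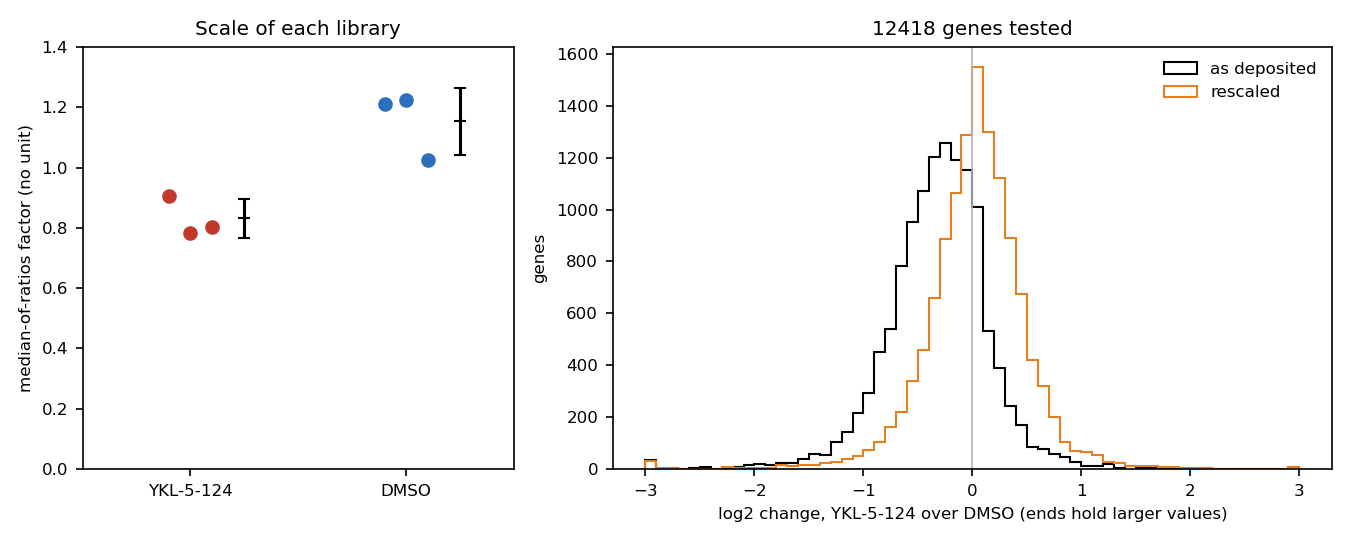
Left, the median-of-ratios factor (no unit) of each library of MM1S at 6 h as points, with the mean and SD of 3 libraries as bars to their right; the YKL-5-124 libraries lay at 0.784 to 0.906 and the DMSO libraries at 1.03 to 1.22. Right, the number of genes by log2 change on both scales; the median was -0.29 as deposited and 0.05 rescaled.

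The plasma cell identity of the cells was measured with fixed markers. All 10 plasma cell markers were above the filter, with a summed level of 5118 to 5973 FPKM with YKL-5-124 and 5580.1 to 7670.0 FPKM with DMSO. Of these, 1 was lower as deposited, and 1 was lower and 1 higher rescaled. MAF itself held 53.7, 45.1 and 44.3 FPKM with YKL-5-124, against 51.5, 53.98 and 30.03 FPKM with DMSO, with overlapping groups. The sums that follow are over all markers in the files, those below the filter included. Of 10 T cell markers, 8 were in the files and 2 were above the filter, and the 8 had a summed level of 1.41 to 2.34 FPKM with YKL-5-124 and 1.53 to 3.91 FPKM with DMSO. Of 10 monocyte markers 3 were above it, and all 10 summed to 1.69 to 7.91 FPKM with YKL-5-124 and 1.86 to 2.93 FPKM with DMSO. Of 10 epithelial and fibroblast markers 2 were above it, and all 10 summed to 1.32 to 2.10 FPKM with YKL-5-124 and 1.76 to 2.28 FPKM with DMSO. Of 10 B cell markers 4 were above it, and all 10 summed to 34.5 to 43.0 FPKM with YKL-5-124 and 49.1 to 56.6 FPKM with DMSO. The B cell sums did not overlap, and their part in the results was not tested. None of the 11 markers of other cells above the filter was called on either scale. CD3G held 0.152 to 0.386 FPKM with YKL-5-124 and 0.0865 to 1.70 FPKM with DMSO, and KRT18 0.0723 to 0.123 FPKM and 0.0825 to 0.437 FPKM. Every value but that of CD3G in DMSO replicate 3 (1.70 FPKM) was below 1 FPKM. CD3E held 0.267, 0.880 and 1.07 FPKM with YKL-5-124, against 2.03, 0.961 and 1.47 FPKM with DMSO. S100A9 held 4.62 FPKM in YKL-5-124 replicate 2, against 0.374 and 0.338 FPKM in replicates 1 and 3 and 0.104 to 0.302 FPKM with DMSO.

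After 6 h of YKL-5-124, far more genes were lower than higher on the deposited scale. Rescaling sets the typical gene near no change, so the more even balance on that scale is largely built in. Of 12418 genes tested, 1245 were lower (10.0%) and 115 were higher (0.926%) as deposited (limma, Benjamini-Hochberg adjusted p below 0.05), with falls of at least 1 in log2 for 670 (5.40%) and such rises for 52 (0.419%). After rescaling, 896 were lower (7.22%) and 1024 higher (8.25%), 177 and 178 (1.43% each) past the same size. In all, 849 genes were lower on both scales (6.84%) and 115 higher on both. A further 396 were lower as deposited only, 47 lower after rescaling only and 909 higher after rescaling only. The median log2 change of all genes was -0.29 as deposited and 0.05 rescaled, a shift that each list below carries too. Groups whose 3 and 3 libraries did not overlap were common, with 4568 genes lower (36.8%) and 367 higher (2.96%) in that sense as deposited and 1620 lower (13.0%) and 2135 higher (17.2%) rescaled. Genes named below for a small p, or after their values were seen, were likely to be separated in this way. Such separation is therefore given only as a description. At an unadjusted p below 0.05, 3371 genes differed as deposited.

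The genes that rose mostly had a low level with DMSO and those that fell did not. The DMSO level is also the baseline of each change, and genes could pass the filter through the YKL-5-124 libraries alone. This contrast was therefore favoured in advance and is given as a description. Genes higher on both scales had a median DMSO level of 0.803 FPKM, and 107 of the 115 stood below 5 FPKM with DMSO. Genes lower on both scales had a median DMSO level of 19.5 FPKM, and 113 of the 849 stood below 5 FPKM. All genes tested had a median of 6.02 FPKM. With only genes of a mean of at least 5 FPKM tested, 15 were higher and 1060 lower. The count of lower genes was 615 or 460 without YKL-5-124 replicate 2 or 3 and 473 or 611 without DMSO replicate 1 or 2. It was 614 without both libraries with scattered spike-ins. The count of higher genes was 74 or 49 without YKL-5-124 replicate 1 or 2, 66, 61 or 69 without DMSO replicate 1, 2 or 3, and 50 without both libraries with scattered spike-ins. After rescaling, the count of higher genes was 625 without YKL-5-124 replicate 2. Of the 113 genes named by rule that were called as deposited, 60 kept their call with each of the 6 libraries left out in turn. For the other genes named below, the libraries on which the call rests are given in the same paragraph.

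The largest falls came from genes of differing roles, of which those of splicing, chaperones and chemokines are described further down. ANKRD37, an ankyrin repeat gene known as a hypoxia target, held 5.84, 0.7696 and 3.32 FPKM with YKL-5-124, against 52.5, 44.7 and 40.1 FPKM with DMSO. It fell by 3.64 on the log2 scale (SE 0.60, adjusted p = 0.000625, limma), with YKL-5-124 replicate 2 far below its fellows. FUBP1, a single-stranded DNA and RNA binding protein first described as a regulator of MYC, held 6.57, 6.26 and 6.12 FPKM with YKL-5-124, against 48.3, 57.5 and 54.2 FPKM with DMSO. It fell by 2.89 ± 0.30 (adjusted p = 7.88e-06). MYB, a transcription factor of blood progenitors, held 2.87, 2.53 and 1.83 FPKM with YKL-5-124, against 13.2, 14.4 and 15.3 FPKM with DMSO (log2 change -2.18 ± 0.28, adjusted p = 7.96e-05). Every YKL-5-124 library of these 3 genes lay below every DMSO library. Genes named for the largest falls and rises were chosen with groups that do not overlap, so that separation is given as a description, here and wherever these genes return. ATXN2L, an RNA binding protein of stress granules, held 2.11, 2.08 and 0.447 FPKM with YKL-5-124, against 11.9, 8.94 and 9.33 FPKM with DMSO. ATXN2L fell by 2.19 ± 0.50, with YKL-5-124 replicate 3 lowest of its group. ATXN2L was not called without YKL-5-124 replicate 3 (adjusted p = 0.0561).

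**Figure D2:**
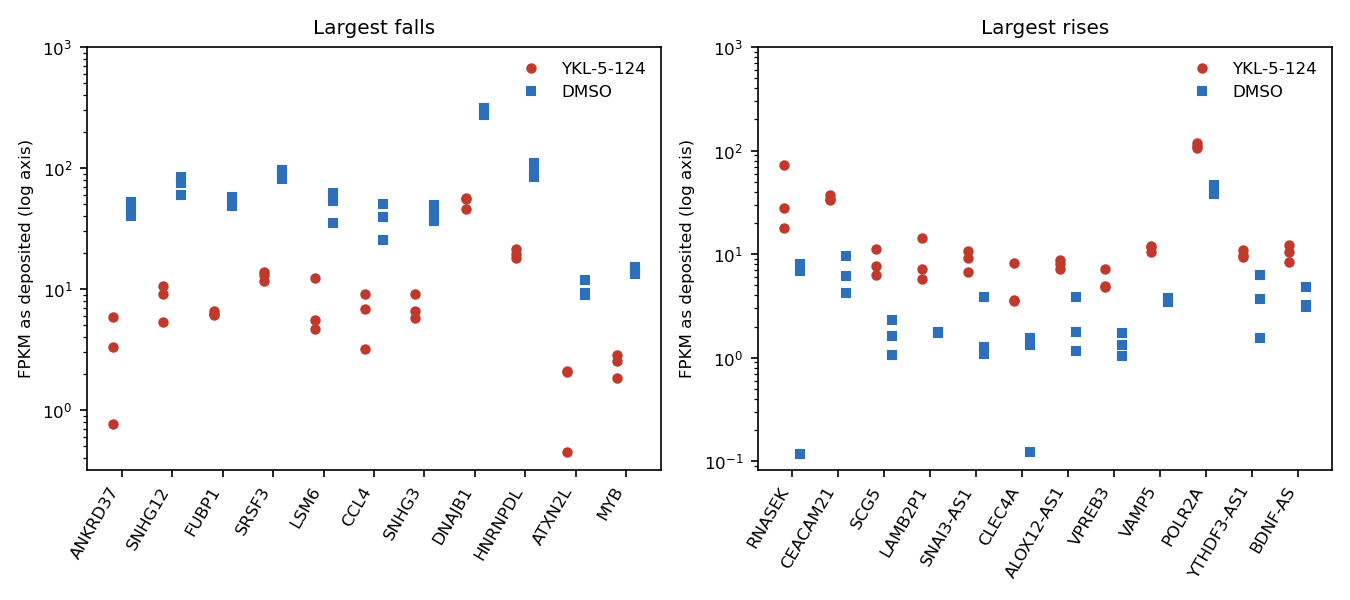
FPKM as deposited (log axis) of 11 genes from among the 12 largest falls and of the 12 genes with the largest rises, among genes called on both scales, 1 point per library, with YKL-5-124 as circles left of DMSO as squares. The genes were chosen to have groups that do not overlap; SRSF3 lay at 11.6 to 13.7 FPKM with YKL-5-124 and 80.6 to 95.7 FPKM with DMSO, and POLR2A at 107 to 117 FPKM with YKL-5-124 and 37.7 to 46.7 FPKM with DMSO.

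The largest rises were a mixed set of genes, among them the polymerase gene POLR2A, described further down. CEACAM21, a cell adhesion molecule of the carcinoembryonic antigen family, held 34.3, 33.4 and 37.4 FPKM with YKL-5-124, against 9.55, 6.203 and 4.198 FPKM with DMSO (log2 change 2.29 ± 0.30, adjusted p = 8.86e-05; rescaled 2.73). SCG5, a chaperone of secretory granules, held 6.26, 11.3 and 7.67 FPKM with YKL-5-124, against 2.295, 1.05 and 1.63 FPKM with DMSO (log2 change 1.81 ± 0.29, adjusted p = 0.000559). VAMP5, a vesicle membrane protein, held 12.00, 11.7 and 10.6 FPKM with YKL-5-124, against 3.81, 3.42 and 3.63 FPKM with DMSO (log2 change 1.42 ± 0.27, adjusted p = 0.00242). As chosen, each of the 3 had its lowest YKL-5-124 library above its highest DMSO library. VPREB3, a gene of the B cell receptor complex in precursor cells, held 4.84, 4.93 and 7.11 FPKM with YKL-5-124, against 1.05, 1.32 and 1.72 FPKM with DMSO and rose by 1.48 ± 0.38, but was not called without YKL-5-124 replicate 3 or DMSO replicate 1 (adjusted p = 0.0675 to 0.0742). CLEC4A, a lectin receptor of myeloid cells, held 3.58, 8.14 and 3.498 FPKM with YKL-5-124, against 1.34, 1.56 and 0.122 FPKM with DMSO (log2 change 1.60 ± 0.33, adjusted p = 0.00386). Its DMSO replicate 3 stood near the lowest values listed. All 10 monocyte markers, of which the 3 above the filter were not called, summed to 1.69 to 7.91 FPKM with YKL-5-124 and 1.86 to 2.93 FPKM with DMSO, and their part in the result was not tested. RNASEK, a component of the vacuolar proton pump, held 18.04, 72.6 and 27.6 FPKM with YKL-5-124, against 6.803, 8.11 and 0.117 FPKM with DMSO and had the largest rise, 2.99 ± 0.85. It also had a wide spread, shares its locus with a readthrough transcript, and was not called without YKL-5-124 replicate 2 or 3 or DMSO replicate 3 (adjusted p = 0.065 to 0.136).

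The remaining large rises were of transcripts that do not code for proteins and that share a locus or sequence with other genes. How strand was counted is not given in the sources used here, so reads of an antisense gene and its partner cannot be told apart. LAMB2P1, a laminin pseudogene, held 14.4, 7.26 and 5.69 FPKM with YKL-5-124, against 1.76, 1.79 and 1.72 FPKM with DMSO (log2 change 1.78 ± 0.27, adjusted p = 0.000291). SNAI3-AS1 held 10.7, 6.74 and 9.22 FPKM with YKL-5-124, against 3.82, 1.09 and 1.27 FPKM with DMSO (log2 change 1.78 ± 0.35, adjusted p = 0.00321). ALOX12-AS1 rose by 1.55 ± 0.47, YTHDF3-AS1 by 1.33 ± 0.32 and BDNF-AS by 1.28 ± 0.32. These 3 rested on single libraries: ALOX12-AS1 was not called without YKL-5-124 replicate 1, 2 or 3 or DMSO replicate 1 or 2 (adjusted p = 0.0624 to 0.154), YTHDF3-AS1 not without DMSO replicate 3 (adjusted p = 0.0758), and BDNF-AS not without YKL-5-124 replicate 2 or DMSO replicate 1 (adjusted p = 0.0592 to 0.0631). Counted by name after their values were seen, 13 of 336 antisense (-AS) entries were higher and 6 lower as deposited, and 33 were higher and 5 lower rescaled. LINC entries had 6 higher and 2 lower of 172 as deposited, and 17 higher and 1 lower rescaled. The shares of all genes on the same counts were 0.926% higher and 10.0% lower as deposited, and 8.25% higher and 7.22% lower rescaled.

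Among the subunits of RNA polymerase II itself, POLR2A alone was called as deposited. POLR2A encodes the largest subunit, whose tail CDK7 phosphorylates. It held 117, 107 and 111 FPKM with YKL-5-124, against 46.7, 44.6 and 37.7 FPKM with DMSO. The YKL-5-124 libraries were all above the DMSO libraries, by 1.36 ± 0.29 on the log2 scale (adjusted p = 0.00519; rescaled 1.82, adjusted p = 6.25e-10). It was called under every alternative tried. Of the 12 polymerase subunits tested, 1 was higher and 0 lower on either scale. The shares of all genes were 0.926% higher and 10.0% lower as deposited, and 8.25% higher and 7.22% lower rescaled. On the rescaled values the count of higher subunits was thus near that share.

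The kinase module of TFIIH showed no called change of its catalytic subunit. CDK7 held 5.45, 5.48 and 1.88 FPKM with YKL-5-124, against 7.47, 4.63 and 3.16 FPKM with DMSO (log2 change -0.24 ± 0.33, adjusted p = 0.682), and the groups overlapped. CCNH held 13.2, 10.1 and 7.69 FPKM with YKL-5-124, against 9.84, 6.67 and 10.4 FPKM with DMSO (log2 change 0.18 ± 0.32, adjusted p = 0.773), and these groups overlapped as well. MNAT1, the assembly factor, held 2.48, 2.79 and 1.12 FPKM with YKL-5-124, against 7.01, 6.63 and 3.87 FPKM with DMSO and fell by 1.14 ± 0.27 (adjusted p = 0.0113; rescaled -0.78, adjusted p = 0.101, not called). MNAT1 was not called without YKL-5-124 replicate 3 or DMSO replicate 1 or 2 (adjusted p = 0.0529 to 0.0833).

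The elongation kinases and their regulators split on the rescaled values. The kinase of productive elongation, P-TEFb, is held inactive by a small nuclear RNA with LARP7, MEPCE and HEXIM1. LARP7, which binds that RNA, held 9.19, 6.96 and 8.67 FPKM with YKL-5-124, against 24.7, 18.9 and 22.5 FPKM with DMSO and fell by 1.31 ± 0.28 (adjusted p = 0.00488; rescaled -0.88, adjusted p = 0.000396). MEPCE, which caps the RNA, held 33.5, 41.4 and 26.6 FPKM with YKL-5-124, against 72.04, 66.1 and 69.8 FPKM with DMSO (log2 change -1.03 ± 0.32, adjusted p = 0.0392). HEXIM1, the inhibitor, held 9.72, 10.8 and 9.04 FPKM with YKL-5-124, against 8.44, 7.93 and 5.51 FPKM with DMSO; it was not called as deposited (log2 change 0.40 ± 0.25) and rose after rescaling (0.83, adjusted p = 0.00533). The cyclin genes CCNT1 and CCNT2 of P-TEFb also rose after rescaling only, by 0.54 and 0.65 (adjusted p = 0.0195 and 0.0318), but CCNT1 was not called without YKL-5-124 replicate 2 or DMSO replicate 2 (adjusted p = 0.0596 to 0.0612) and CCNT2 not without YKL-5-124 replicate 1 or 2 or DMSO replicate 1, 2 or 3 (adjusted p = 0.0622 to 0.135). CDK12, another kinase of the polymerase tail, held 2.71, 2.93 and 2.39 FPKM with YKL-5-124, against 5.26, 5.500 and 4.76 FPKM with DMSO and fell by 0.75 ± 0.21 (adjusted p = 0.0275). Of the 36 genes of the list, 4 were lower and 0 higher as deposited, and 3 were lower and 9 higher rescaled. The lower share was 11.1% as deposited, near the 10.0% of all genes, and the 9 of 36 higher rescaled stood against 8.25% of all genes. Single libraries left out gave 1 to 3 lower as deposited, lowest without YKL-5-124 replicate 3 or DMSO replicate 1 or 2, and 4 to 9 higher rescaled, lowest without YKL-5-124 replicate 1 or 2. Without both libraries with scattered spike-ins 2 were lower as deposited. MEPCE was not called with any 1 of the 6 libraries left out (adjusted p = 0.0542 to 0.164), and CDK12 not without YKL-5-124 replicate 1, 2 or 3 or DMSO replicate 1 or 2 (adjusted p = 0.0575 to 0.104).

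Of Mediator, which joins transcription factors to the polymerase, 3 genes fell. MED19 held 3.703, 2.94 and 5.55 FPKM with YKL-5-124, against 16.3, 17.2 and 13.6 FPKM with DMSO (log2 change -1.75 ± 0.27, adjusted p = 0.000383; rescaled -1.34), with every YKL-5-124 library far below the DMSO libraries. MED17 held 2.55, 2.48 and 2.62 FPKM with YKL-5-124, against 6.08, 6.903 and 4.85 FPKM with DMSO and MED7 held 9.99, 8.58 and 4.202 FPKM with YKL-5-124, against 23.6, 18.6 and 10.9 FPKM with DMSO, falls of 0.96 ± 0.24 and 1.13 ± 0.31 that were not called after rescaling (adjusted p = 0.0752 and 0.0513). Of the 62 genes of the polymerase, Mediator and TFIID, 1 was higher and 5 lower as deposited, and 2 were higher and 2 lower rescaled. Those lower made up 8.06% as deposited, against 10.0% of all genes, and 3.23% rescaled, against 7.22%. The shares of all genes higher were 0.926% as deposited and 8.25% rescaled. With a single library left out the number lower was 1 to 4, with 1 left without DMSO replicate 1 or 2, and it was 3 without both libraries with scattered spike-ins. MED17 was not called without DMSO replicate 1 or 2 (adjusted p = 0.0523 to 0.0636), and MED7 not without YKL-5-124 replicate 3 or DMSO replicate 1 or 2 (adjusted p = 0.0822 to 0.16).

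**Figure D3:**
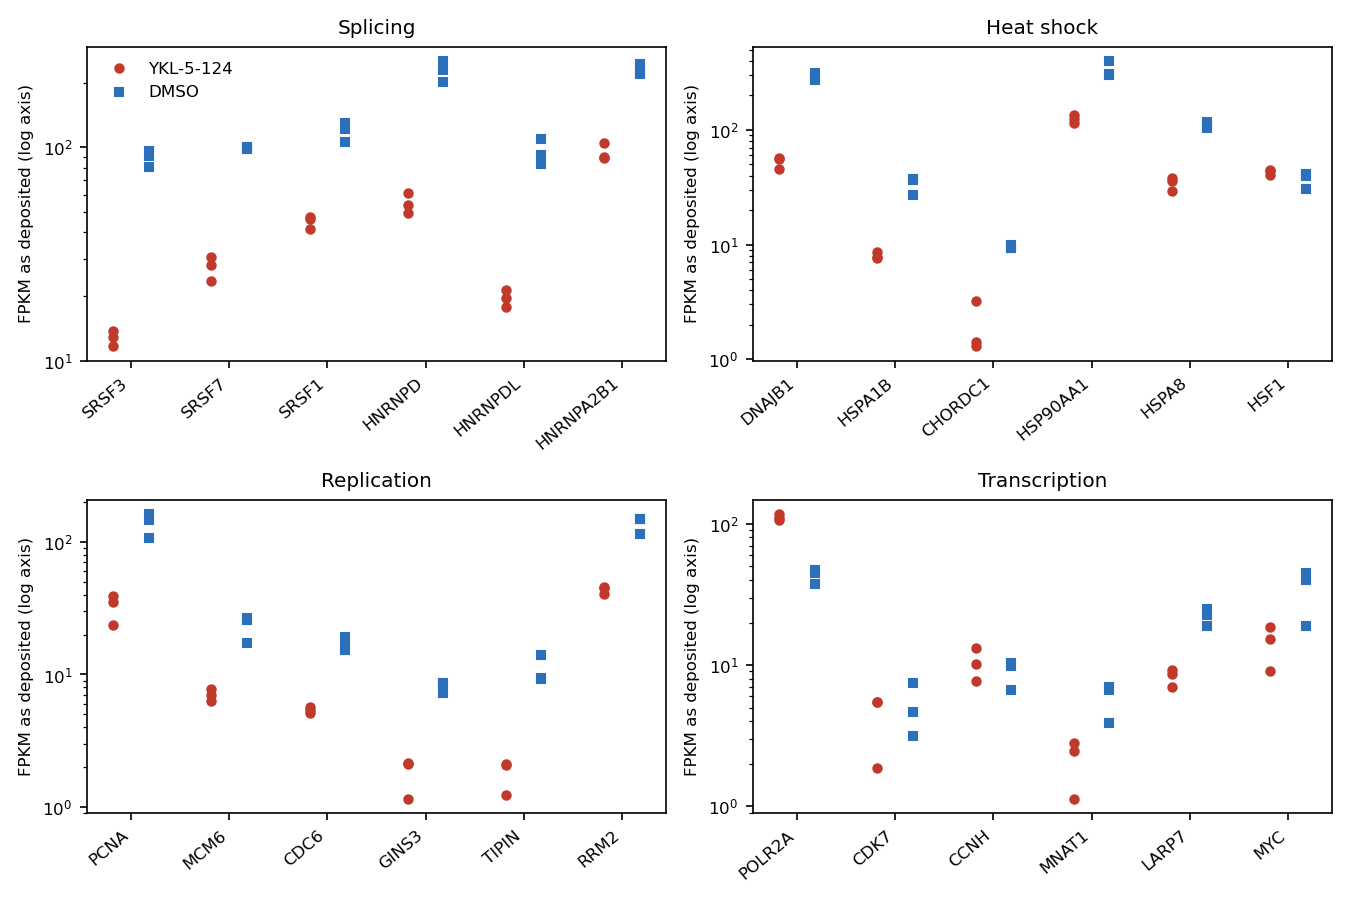
FPKM as deposited (log axis) of 24 genes of splicing, heat shock, replication and transcription, chosen after their values were seen, 1 point per library, with YKL-5-124 as circles left of DMSO as squares. CDK7 and CCNH overlap between the groups; DNAJB1 lay at 46.0 to 56.9 FPKM with YKL-5-124 and 273 to 315 with DMSO.

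Splicing regulators gave some of the steepest falls in the data. SR proteins and hnRNPs bind nascent transcripts and set which exons are joined, and many of them control their own RNA levels. SRSF3, an SR protein, held 13.7, 11.6 and 12.96 FPKM with YKL-5-124, against 95.7, 91.5 and 80.6 FPKM with DMSO. That was a fall of 2.71 ± 0.25 with the smallest adjusted p of the named genes (2.95e-06; rescaled -2.26, adjusted p = 9.34e-12). HNRNPDL held 19.6, 17.9 and 21.5 FPKM with YKL-5-124, against 109.7, 91.9 and 83.8 FPKM with DMSO (log2 change -2.21 ± 0.26, adjusted p = 3.87e-05). HNRNPD, its paralog and a binder of AU-rich elements, held 61.1, 53.8 and 49.3 FPKM with YKL-5-124, against 229.8, 254 and 203 FPKM with DMSO (log2 change -2.04 ± 0.26, adjusted p = 7.96e-05). LSM6, of the ring that binds the U6 RNA, held 12.4, 4.68 and 5.54 FPKM with YKL-5-124, against 62.3, 53.05 and 34.9 FPKM with DMSO (log2 change -2.65 ± 0.36, adjusted p = 0.000129). In all 4 genes, named for a small p or a large fall, the groups were clearly apart on both scales. Of all genes, 36.8% were lower without overlap as deposited and 13.0% rescaled.

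Other members of both families fell by less. SRSF7 had a log2 change of -1.83 ± 0.27, SRSF2 of -1.46 ± 0.30, SRSF1 of -1.39 ± 0.30 and SRSF6 of -1.12 ± 0.27. Among the hnRNPs, HNRNPAB had -1.45 ± 0.28, HNRNPA2B1 -1.27 ± 0.25 and HNRNPR -1.20 ± 0.24. The core factor SF3B1, which recognises the branch point, differed from them: it held 32.9, 21.5 and 26.3 FPKM with YKL-5-124, against 29.5, 30.00 and 20.2 FPKM with DMSO and a log2 change of 0.02 ± 0.28 (adjusted p = 0.988), and was higher after rescaling (0.47, adjusted p = 0.00941), though not without YKL-5-124 replicate 1 or DMSO replicate 3 (adjusted p = 0.0558 to 0.0574). The SR kinase gene CLK3 was likewise called higher after rescaling only (0.70, adjusted p = 0.00289).

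Of 67 splicing genes tested, 27 were lower and 0 higher as deposited, with a median log2 change of -0.74 against -0.29 for all genes. After rescaling 22 were lower and 4 higher, with a median of -0.28 against 0.05. The shares of all genes were 10.0% lower as deposited, and 7.22% lower and 8.25% higher rescaled. By role, 6 of 19 SR proteins and their kinases and 21 of 48 hnRNPs and core factors were lower as deposited, and 6 and 16 rescaled. From 10 to 18 genes were lower with a single library left out, and it was 10 without DMSO replicate 1 or 2 and 12 without both libraries with scattered spike-ins. After rescaling the single-library range was 15 to 22. SRSF3, HNRNPDL, HNRNPD and LSM6 kept their call with each library left out, as did the others named as lower except SRSF6, which was not called without DMSO replicate 1 or 2 (adjusted p = 0.0554 to 0.0631).

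Of the host genes of small nucleolar RNAs, 9 of 21 fell on each scale, a share of 42.9% against 10.0% of all genes as deposited and 7.22% rescaled. They are spliced transcripts whose introns carry the small RNAs that guide modification of ribosomal RNA, and many of their spliced products are short-lived. SNHG12 held 9.11, 5.35 and 10.5 FPKM with YKL-5-124, against 85.01, 59.7 and 74.6 FPKM with DMSO (log2 change -3.02 ± 0.35, adjusted p = 3.87e-05). SNHG3 held 9.08, 6.56 and 5.77 FPKM with YKL-5-124, against 49.2, 44.5 and 36.2 FPKM with DMSO (log2 change -2.46 ± 0.30, adjusted p = 5.1e-05). In both the YKL-5-124 libraries lay far under the DMSO libraries. SNHG1 held 74.9, 57.4 and 69.3 FPKM with YKL-5-124, against 265, 292 and 308 FPKM with DMSO (log2 change -2.09 ± 0.28, adjusted p = 0.00011). SNHG7 held 30.97, 16.6 and 24.8 FPKM with YKL-5-124, against 102, 101 and 84.3 FPKM with DMSO (log2 change -1.99 ± 0.30, adjusted p = 0.000297). These 2 were apart as well. On each scale the other 12 were not called, 0 were higher, and the list had a median log2 change of -0.88 as deposited and -0.41 rescaled. SNHG15 was lower as deposited only (rescaled adjusted p = 0.0956, limma) and GAS5 rescaled only (adjusted p = 0.0526 as deposited, limma). Those lower numbered 5 to 8 with a single library left out on either scale, lowest as deposited without YKL-5-124 replicate 2 or DMSO replicate 1, and 5 without both libraries with scattered spike-ins. SNHG25, also such a host gene, took 22.7% to 28.1% of the summed gene FPKM with YKL-5-124 and 16.9% to 28.7% with DMSO, and was not called on either scale. Of the small nucleolar RNA entries themselves, counted by name after their values were seen, 13 of 156 were lower and 1 higher as deposited. Such short RNAs lie within the host genes and the reads of both cannot be told apart.

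The promoters of the 3 host genes with the smallest p are shown since their start sites are known for a run of pyrimidines, as in ribosomal protein genes. They are RefSeq windows on GRCh38.p14, 250 bases before to 50 after the annotated start, whereas the files were made on hg19. Capitals mark a C followed by 6 or more pyrimidines (C or T) that begins within 20 bases of the start on the sense strand, and no other motif was searched here. SNHG12 lies at chr1:28581824-28582123 (minus strand), SNHG3 at chr1:28505693-28505992 (plus strand) and SNHG1 at chr11:62855836-62856135 (minus strand).
SNHG12: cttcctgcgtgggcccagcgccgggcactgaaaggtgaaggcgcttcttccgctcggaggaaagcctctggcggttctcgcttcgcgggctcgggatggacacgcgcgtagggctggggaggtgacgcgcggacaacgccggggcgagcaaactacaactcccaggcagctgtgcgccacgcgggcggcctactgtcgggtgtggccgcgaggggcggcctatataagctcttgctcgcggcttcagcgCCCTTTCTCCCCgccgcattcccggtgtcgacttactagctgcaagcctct
SNHG3: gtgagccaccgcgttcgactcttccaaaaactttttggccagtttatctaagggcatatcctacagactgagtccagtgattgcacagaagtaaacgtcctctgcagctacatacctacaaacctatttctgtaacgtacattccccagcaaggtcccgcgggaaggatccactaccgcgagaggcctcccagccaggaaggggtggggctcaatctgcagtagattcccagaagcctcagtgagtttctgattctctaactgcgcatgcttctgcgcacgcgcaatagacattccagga
SNHG1: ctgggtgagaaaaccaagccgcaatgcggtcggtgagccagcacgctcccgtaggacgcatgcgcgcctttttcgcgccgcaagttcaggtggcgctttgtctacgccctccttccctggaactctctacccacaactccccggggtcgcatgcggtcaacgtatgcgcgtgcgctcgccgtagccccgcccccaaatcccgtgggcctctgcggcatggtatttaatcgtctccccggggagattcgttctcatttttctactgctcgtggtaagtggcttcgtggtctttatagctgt
The SNHG12 window holds such a run, beginning at the base before the annotated start. The windows of SNHG3 and SNHG1 hold none by this rule. A single window was searched for each gene, so any other start site was left out. Over the list, 5 of 18 matched promoters (27.8%) held a run, against 7556 of 35116 promoters in the table (21.5%). The table share counted all windows, those of genes not tested included.

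Of 52 genes of ribosome assembly 21 fell, whereas no gene of a ribosomal protein was called as deposited. NCL, the nucleolar protein nucleolin, held 172, 154 and 156 FPKM with YKL-5-124, against 434, 405 and 403 FPKM with DMSO (log2 change -1.36 ± 0.26, adjusted p = 0.0023; rescaled -0.89). UTP18, of the small subunit processome, held 1.95, 2.62 and 2.24 FPKM with YKL-5-124, against 12.8, 9.597 and 8.95 FPKM with DMSO (log2 change -1.80 ± 0.27, adjusted p = 0.000282). Both had their groups far apart. TAF1D, of the factor that brings RNA polymerase I to ribosomal DNA and itself a host of small nucleolar RNAs, held 37.9, 29.3 and 26.04 FPKM with YKL-5-124, against 97.4, 96.5 and 87.4 FPKM with DMSO (log2 change -1.58 ± 0.26, adjusted p = 0.000576). GNL3, the nucleolar GTPase nucleostemin, held 3.17, 4.68 and 4.94 FPKM with YKL-5-124, against 13.2, 9.29 and 13.7 FPKM with DMSO (log2 change -1.31 ± 0.28, adjusted p = 0.00485). Those 21 were 40.4% of the list, against 10.0% of all genes, and on each scale 21 were lower and 0 higher, with medians of -0.80 as deposited and -0.36 rescaled. The number was 13 to 18 with a single library left out as deposited, lowest without DMSO replicate 1, 15 to 21 rescaled, and 14 without both libraries with scattered spike-ins.

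Of the 78 cytosolic ribosomal protein genes, 0 were called as deposited, where the median log2 change was -0.22. RPS28 held 57539, 50696 and 51581 FPKM with YKL-5-124, against 61112, 62741 and 37376 FPKM with DMSO (adjusted p = 0.987), and DMSO replicate 3 lay below all other libraries. RPLP1 held 27614, 25761 and 25738 FPKM with YKL-5-124, against 29957, 30114 and 25200.0 FPKM with DMSO (adjusted p = 0.857). After rescaling 10 were higher and 0 lower, with a median of 0.25, where 8.25% of all genes were higher and 7.22% lower. RPLP1 was one of them (0.37, adjusted p = 0.00821), while RPS28 was not called (0.49, adjusted p = 0.149). By subunit, 8 of 32 genes of the small and 2 of 46 of the large subunit were higher. The number higher was 6 to 9 with a single library left out. Reads of these genes may be shared with their many processed pseudogenes.

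Of 37 genes of translation initiation, 4 were lower as deposited (10.8%, against 10.0% of all genes), and 3 were lower (8.11%, against 7.22%) and 2 higher rescaled, so the list's shares lay near those of all genes. EIF4A2, a helicase of initiation and also a host of small nucleolar RNAs, held 78.3, 55.2 and 63.5 FPKM with YKL-5-124, against 241, 227 and 185 FPKM with DMSO (log2 change -1.72 ± 0.26, adjusted p = 0.000333). EIF4E, which binds the cap, held 6.24, 5.45 and 6.96 FPKM with YKL-5-124, against 15.7, 15.2 and 17.4 FPKM with DMSO (log2 change -1.25 ± 0.27, adjusted p = 0.00595). EIF3A fell by 1.05 ± 0.28 and EIF4EBP1, the inhibitor of EIF4E, by 1.09 ± 0.34, both called as deposited only. EIF3A was not called without YKL-5-124 replicate 2 or 3 or DMSO replicate 3 (adjusted p = 0.0545 to 0.0841), and EIF4EBP1 not without YKL-5-124 replicate 2 or DMSO replicate 1, 2 or 3 (adjusted p = 0.0847 to 0.27). Of 20 aminoacyl-tRNA synthetase genes, 0 were called on either scale (limma). FARSA (-0.52 ± 0.29, adjusted p = 0.257) and TARS (-0.52 ± 0.26, adjusted p = 0.204) are given as examples.

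Of 54 genes of DNA replication 25 fell, among them genes of the helicase, its loading factors and the fork. PCNA, the sliding clamp, held 38.96, 23.5 and 35.2 FPKM with YKL-5-124, against 162, 146 and 106 FPKM with DMSO. This was a log2 change of -2.06 ± 0.30 (adjusted p = 0.000282; rescaled -1.60), with the groups far apart. MCM4, of the helicase, held 14.2, 12.96 and 15.7 FPKM with YKL-5-124, against 55.3, 53.3 and 64.7 FPKM with DMSO (log2 change -1.94 ± 0.25, adjusted p = 8.5e-05). GINS3, of the complex that binds it, held 2.12, 1.15 and 2.14 FPKM with YKL-5-124, against 8.601, 8.38 and 7.300 FPKM with DMSO (log2 change -1.72 ± 0.24, adjusted p = 0.000142). TIPIN, of the fork protection complex, held 1.23, 2.08 and 2.13 FPKM with YKL-5-124, against 9.28, 13.9 and 9.42 FPKM with DMSO (log2 change -2.07 ± 0.29, adjusted p = 0.000142). MCM6 and the loader gene CDC6 had log2 changes of -1.57 ± 0.24 and -1.53 ± 0.26, and of -1.14 and -1.11 rescaled. Every one of these 6 genes had its YKL-5-124 libraries below its DMSO libraries, as did 36.8% of all genes as deposited. The 6 were chosen for a small p or after their values were seen, which favours such separation.

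By role, 8 of 12 helicase genes were lower on both counts, as were 5 of 11 loading and origin genes as deposited (4 rescaled) and 12 of 31 fork and polymerase genes on each scale. In total 25 of 54 were lower and 0 higher as deposited, and 24 lower and 0 higher rescaled. Of all genes, 10.0% were lower as deposited and 7.22% rescaled. The median log2 change was -0.78 as deposited and -0.37 rescaled. The number lower was 18 to 24 with a single library left out and 18 to 22 on the rescaled scale, and 21 without both libraries with scattered spike-ins. CDC45, which completes the helicase, held 9.74, 10.1 and 7.78 FPKM with YKL-5-124, against 11.6, 14.7 and 9.65 FPKM with DMSO and was not called (log2 change -0.34 ± 0.24, adjusted p = 0.384).

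The promoters of 3 called replication genes with the smallest p, MCM4 left aside, are shown because many genes of this group carry sites for E2F factors. They are RefSeq windows of GRCh38.p14, 250 bases before to 50 after the start. Capitals mark TTTCCCGC, TTTCGCGC, TTTGCCGC or TTTGGCGC on either strand. GINS3 lies at chr16:58392221-58392520 (plus strand), TIPIN at chr15:66386668-66386967 (minus strand) and PCNA at chr20:5126573-5126872 (minus strand).
GINS3: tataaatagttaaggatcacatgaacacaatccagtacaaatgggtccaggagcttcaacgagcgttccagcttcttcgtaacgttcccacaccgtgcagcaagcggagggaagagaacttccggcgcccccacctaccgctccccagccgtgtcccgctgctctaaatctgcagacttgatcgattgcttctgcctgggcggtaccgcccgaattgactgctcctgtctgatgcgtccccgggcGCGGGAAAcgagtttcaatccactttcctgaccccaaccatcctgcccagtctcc
TIPIN: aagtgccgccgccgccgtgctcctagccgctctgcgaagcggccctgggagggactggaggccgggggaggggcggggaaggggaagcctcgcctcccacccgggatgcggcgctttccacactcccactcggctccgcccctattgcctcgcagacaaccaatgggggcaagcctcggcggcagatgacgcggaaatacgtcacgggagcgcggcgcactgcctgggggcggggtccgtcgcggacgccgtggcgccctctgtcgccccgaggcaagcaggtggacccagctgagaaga
PCNA: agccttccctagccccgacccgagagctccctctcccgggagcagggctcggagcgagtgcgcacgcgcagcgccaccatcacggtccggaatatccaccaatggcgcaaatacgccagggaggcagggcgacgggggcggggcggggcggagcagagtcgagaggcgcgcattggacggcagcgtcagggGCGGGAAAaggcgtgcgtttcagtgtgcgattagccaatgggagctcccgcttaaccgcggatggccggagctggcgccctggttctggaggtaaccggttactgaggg
GINS3 and PCNA hold 1 match each, beginning 5 and 59 bases before the start, and both are TTTCCCGC read on the opposite strand. TIPIN holds none of these letters in the single window searched. Of 46 matched replication promoters 20 (43.5%) held a match, against 1164 of 35116 promoters in the table (3.31%). The list share took a single window for each tested gene. The table share counted all windows, those of genes not tested included, so the sets are unlike. A match describes letters in a window and not a bound site.

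Some genes of nucleotide supply fell too. RRM2, the regulated subunit of ribonucleotide reductase, held 45.5, 40.7 and 44.98 FPKM with YKL-5-124, against 149.7, 149 and 114 FPKM with DMSO (log2 change -1.62 ± 0.28, adjusted p = 0.000898; rescaled -1.16). CTPS1, which makes CTP, held 11.2, 7.96 and 11.2 FPKM with YKL-5-124, against 30.4, 30.7 and 32.5 FPKM with DMSO (log2 change -1.55 ± 0.31, adjusted p = 0.00362). PPAT, the first enzyme of purine synthesis, fell by 0.98 ± 0.24, and DUT, which removes dUTP, by 1.13 ± 0.26. Of 26 genes, 11 were lower and 0 higher as deposited and 8 lower and 0 higher rescaled, where 10.0% and 7.22% of all genes were lower. Leaving out a single library gave 4 to 8 lower genes, 4 without YKL-5-124 replicate 2 or DMSO replicate 1, and 4 without both libraries with scattered spike-ins. DUT was not called without YKL-5-124 replicate 2 (adjusted p = 0.0563).

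Cell cycle regulators were mostly lower where called, with an exception after rescaling. CDC25A, the phosphatase that opens S phase, held 6.61, 5.75 and 4.695 FPKM with YKL-5-124, against 19.5, 17.5 and 20.98 FPKM with DMSO (log2 change -1.61 ± 0.26, adjusted p = 0.000546). CCNE1, the cyclin of S phase entry, held 9.09, 5.76 and 9.59 FPKM with YKL-5-124, against 25.7, 22.5 and 15.1 FPKM with DMSO (log2 change -1.27 ± 0.30, adjusted p = 0.0101). E2F1 held 10.9, 8.18 and 12.7 FPKM with YKL-5-124, against 22.6, 20.5 and 21.5 FPKM with DMSO (log2 change -0.98 ± 0.28, adjusted p = 0.0268; rescaled -0.54). The groups of these 3 genes were apart, as were those of 36.8% of all genes, lower as deposited. CDK1, the mitotic kinase, held 31.5, 25.8 and 26.05 FPKM with YKL-5-124, against 67.03, 62.5 and 62.3 FPKM with DMSO (log2 change -1.18 ± 0.30, adjusted p = 0.0155). CCND2, the cyclin D gene that MAF is known to drive, held 38.4, 37.1 and 41.6 FPKM with YKL-5-124, against 74.3, 77.8 and 86.6 FPKM with DMSO (log2 change -1.01 ± 0.29, adjusted p = 0.0297) and was not called after rescaling (adjusted p = 0.153). CDC25C, a phosphatase of mitotic entry, lay on the other side. It held 9.59, 10.8 and 8.36 FPKM with YKL-5-124, against 5.76, 7.05 and 2.896 FPKM with DMSO, which was called after rescaling only (1.24, adjusted p = 0.000728).

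Of 42 genes of E2F, cyclins, CDKs and inhibitors, 12 were lower and 0 higher as deposited, and 8 lower and 1 higher rescaled. All genes had shares of 10.0% lower as deposited, and 7.22% lower and 8.25% higher rescaled. From 2 to 9 genes were lower with a single library left out, 2 without DMSO replicate 1, and 4 without both libraries with scattered spike-ins. The rescaled number was 6 to 8. The inhibitor CDKN1A (p21), a p53 target, held 3.84, 4.08 and 3.71 FPKM with YKL-5-124, against 5.39, 5.18 and 2.92 FPKM with DMSO and was not called (log2 change -0.14 ± 0.27, adjusted p = 0.794). E2F7, a repressor of the E2F programme, fell by 0.97 ± 0.23 as deposited only. CCNE1 was not called without YKL-5-124 replicate 2 or DMSO replicate 1 (adjusted p = 0.0611 to 0.0616), and E2F7 not without YKL-5-124 replicate 1 or 3 (adjusted p = 0.0566 to 0.0635). CDK1 was not called without YKL-5-124 replicate 2 or 3 or DMSO replicate 1 (adjusted p = 0.0578 to 0.0621). E2F1 was not called without YKL-5-124 replicate 1 or 2 or DMSO replicate 1, 2 or 3 (adjusted p = 0.0524 to 0.121), and CCND2 not with any 1 of the 6 libraries left out (adjusted p = 0.0656 to 0.0898).

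Some mitotic and repair genes fell. TOP2A, the topoisomerase of dividing cells, held 51.2, 40.3 and 54.2 FPKM with YKL-5-124, against 136, 116 and 164 FPKM with DMSO (log2 change -1.49 ± 0.32, adjusted p = 0.00582). MAD2L1, of the spindle checkpoint, fell by 1.24 ± 0.24, SPC25, of the kinetochore, by 1.27 ± 0.25, and NCAPH, of condensin, by 1.35 ± 0.28. Of 59 mitotic genes, 13 were lower and 0 higher as deposited and 11 lower and 2 higher rescaled. Their number lower was 6 to 11 with a single library left out, 6 without YKL-5-124 replicate 3 or DMSO replicate 1, and 8 without both libraries with scattered spike-ins. CHEK1, the checkpoint kinase, held 4.37, 4.04 and 3.46 FPKM with YKL-5-124, against 8.99, 12.3 and 8.69 FPKM with DMSO (log2 change -1.14 ± 0.22, adjusted p = 0.0025). BRCA1 held 6.45, 6.26 and 6.37 FPKM with YKL-5-124, against 14.5, 15.2 and 15.5 FPKM with DMSO and fell by 1.13 ± 0.23, its partner BARD1 by 1.14 ± 0.26, and FANCL, a ubiquitin ligase of the Fanconi pathway, by 1.43 ± 0.30 (adjusted p = 0.0518 rescaled, not called). Of 38 recombination and Fanconi genes, 11 were lower and 0 higher as deposited and 7 lower and 0 higher rescaled. For both lists the shares of all genes were 10.0% lower as deposited, and 7.22% lower and 8.25% higher rescaled. The number lower as deposited was 5 to 10 with a single library left out, 5 without YKL-5-124 replicate 3, and 6 without both libraries with scattered spike-ins.

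Of 47 chaperones of the heat shock response 20 fell, and HSF1, the factor that switches them on, was not among the genes lower. DNAJB1, an HSP40 co-chaperone, held 56.9, 55.7 and 46.01 FPKM with YKL-5-124, against 279, 273 and 315 FPKM with DMSO. It fell by 2.43 ± 0.33 (adjusted p = 0.000129; rescaled -1.97). HSPA1B, an inducible HSP70, held 8.65, 7.61 and 7.71 FPKM with YKL-5-124, against 36.98, 36.6 and 27.3 FPKM with DMSO (log2 change -1.93 ± 0.24, adjusted p = 6.76e-05). Both are inducible by heat. CHORDC1, a partner of HSP90, held 3.18, 1.398 and 1.29 FPKM with YKL-5-124, against 9.97, 9.28 and 9.24 FPKM with DMSO (log2 change -1.88 ± 0.24, adjusted p = 7.96e-05). BAG2, which releases nucleotide from HSP70, held 0.515, 0.9601 and 0.635 FPKM with YKL-5-124, against 4.47, 4.61 and 2.43 FPKM with DMSO (log2 change -1.48 ± 0.23, adjusted p = 0.000408). The groups of all 4 were apart on both scales and the calls held with each library left out. Lower without overlap were 36.8% of all genes as deposited and 13.0% rescaled. HSPA1B is nearly identical to HSPA1A, so the split of reads between these genes is uncertain.

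Other chaperones fell too. HSPA8, the constitutive HSP70, held 29.2, 38.3 and 35.9 FPKM with YKL-5-124, against 108, 117 and 104 FPKM with DMSO (log2 change -1.65 ± 0.35, adjusted p = 0.00466). HSP90AA1, the inducible HSP90, held 124, 116 and 134 FPKM with YKL-5-124, against 302, 306 and 398 FPKM with DMSO (log2 change -1.41 ± 0.31, adjusted p = 0.00573). HSF1 held 40.8, 43.9 and 44.5 FPKM with YKL-5-124, against 41.2, 39.9 and 30.3 FPKM with DMSO, overlapping groups with a log2 change of 0.22 ± 0.30 (adjusted p = 0.677), and was called higher after rescaling (0.68, adjusted p = 0.00468). DNAJB6, a co-chaperone against aggregation, held 67.2, 68.97 and 67.4 FPKM with YKL-5-124, against 45.3, 50.1 and 49.6 FPKM with DMSO and was likewise called higher after rescaling only (0.94, adjusted p = 0.000106). By class, 6 of 8 HSP70 and HSP110 genes, 5 of 15 HSP40 and exchange factor genes and 9 of 24 HSP90, chaperonin and small HSP genes were lower as deposited. In all 20 of 47 were lower and 0 higher as deposited (median -0.76), and 19 lower and 4 higher rescaled (median -0.36). Over all genes 10.0% were lower as deposited, and 7.22% lower and 8.25% higher rescaled. Those lower numbered 10 to 15 with a single library left out, 10 without YKL-5-124 replicate 2, and 11 without both libraries with scattered spike-ins. The rescaled number lower was 15 to 16.

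The promoters of HSPA1B and CHORDC1, chosen after their values were seen, are shown because heat shock elements, GAA blocks in alternating direction, are what HSF1 binds. The windows are again RefSeq on GRCh38.p14, from 250 bases before to 50 after the start. Capitals mark GAANNTTC or TTCNNGAA, which read the same on both strands and may overlap each other. HSPA1B lies at chr6:31827488-31827787 (plus strand) and CHORDC1 at chr11:90223000-90223299 (minus strand).
HSPA1B: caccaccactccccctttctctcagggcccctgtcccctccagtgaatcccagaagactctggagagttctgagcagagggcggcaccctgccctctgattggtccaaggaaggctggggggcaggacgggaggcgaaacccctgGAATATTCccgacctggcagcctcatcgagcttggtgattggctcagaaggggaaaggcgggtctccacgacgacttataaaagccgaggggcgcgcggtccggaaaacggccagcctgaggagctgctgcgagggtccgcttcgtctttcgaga
CHORDC1: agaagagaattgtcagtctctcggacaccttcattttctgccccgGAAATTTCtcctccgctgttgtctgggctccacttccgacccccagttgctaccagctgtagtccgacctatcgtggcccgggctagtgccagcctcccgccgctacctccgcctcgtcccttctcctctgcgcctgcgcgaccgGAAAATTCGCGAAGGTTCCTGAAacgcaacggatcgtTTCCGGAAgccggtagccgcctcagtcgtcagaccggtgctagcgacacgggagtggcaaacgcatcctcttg
HSPA1B holds 1 match and CHORDC1 6, several of which overlap in a single stretch. The window of DNAJB1, the chaperone that fell most, holds none by these letters. Each gene was searched in a single window, so any other start site of DNAJB1 was not searched. Of 42 matched chaperone promoters 11 (26.2%) held a match, against 4737 of 35116 in the table (13.5%), where all windows were counted.

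Some immediate early genes and chemokines fell. CCL3, a chemokine that myeloma cells are known to secrete, held 1057, 918 and 894 FPKM with YKL-5-124, against 3525, 3660.1 and 2985 FPKM with DMSO (log2 change -1.82 ± 0.28, adjusted p = 0.00033; rescaled -1.35). CCL4, its neighbour, held 9.16, 3.18 and 6.84 FPKM with YKL-5-124, against 39.5, 50.8 and 25.5 FPKM with DMSO (log2 change -2.46 ± 0.53, adjusted p = 0.00587). Both have near-identical copies among which reads could be split. CXCL10 held 0.111, 0.807 and 0.0889 FPKM with YKL-5-124, against 1.78, 3.22 and 1.27 FPKM with DMSO (log2 change -1.20 ± 0.24, adjusted p = 0.0032), which leaves it near the lowest listed values with YKL-5-124. JUN, the AP-1 subunit, held 15.2, 14.4 and 15.7 FPKM with YKL-5-124, against 58.8, 58.1 and 40.2 FPKM with DMSO (log2 change -1.71 ± 0.27, adjusted p = 0.000422). KLF2, a factor of lymphocyte quiescence, held 7.72, 7.41 and 5.02 FPKM with YKL-5-124, against 29.6, 34.5 and 23.4 FPKM with DMSO (log2 change -1.97 ± 0.31, adjusted p = 0.000394). Both factors are quickly made and quickly lost after a stimulus. DUSP4, a phosphatase of ERK, held 14.8, 11.04 and 10.3 FPKM with YKL-5-124, against 35.7, 34.5 and 32.9 FPKM with DMSO (log2 change -1.45 ± 0.26), and the kinase gene PIM1 held 44.2, 46.2 and 27.5 FPKM with YKL-5-124, against 109, 111 and 71.4 FPKM with DMSO (log2 change -1.29 ± 0.26). None of these 7 genes had overlapping groups, where 36.8% of all genes were lower without overlap as deposited.

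Of 39 immediate early and phosphatase genes, 13 were lower and 0 higher as deposited, and 9 lower and 2 higher rescaled (medians -0.52 and -0.22). Shares of all genes were 10.0% lower as deposited, and 7.22% lower and 8.25% higher rescaled. The number lower was 6 to 13 with a single library left out, 6 without YKL-5-124 replicate 3 or DMSO replicate 1 or 2, and 9 without both libraries with scattered spike-ins. The rescaled number was 7 to 11. BTG2, an antiproliferative immediate early gene, held 107, 91.98 and 108 FPKM with YKL-5-124, against 116, 109 and 101 FPKM with DMSO and was called higher after rescaling only (0.38, adjusted p = 0.0159), though not without YKL-5-124 replicate 3 or DMSO replicate 2 (adjusted p = 0.0603 to 0.0703). Of 27 NF-kB subunits, regulators and targets, 6 were lower and 0 higher on each scale. The median of this mixed list was -0.35 as deposited and 0.07 rescaled, close to that of all genes. BIRC3, the inhibitor of apoptosis that NF-kB induces, held 10.2, 8.22 and 8.97 FPKM with YKL-5-124, against 19.5, 20.4 and 22.9 FPKM with DMSO (log2 change -1.11 ± 0.22, adjusted p = 0.00276). The NF-kB number was 4 to 6 with a single library left out, 4 without YKL-5-124 replicate 2, and 4 without both libraries with scattered spike-ins.

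Core factors of the myeloma programme differed in their calls. IRF4, on which myeloma cells depend, held 54.99, 43.9 and 48.9 FPKM with YKL-5-124, against 63.6, 65.04 and 53.8 FPKM with DMSO (log2 change -0.30 ± 0.27, adjusted p = 0.511). XBP1, the factor of secretory capacity, held 825, 763 and 789.8 FPKM with YKL-5-124, against 1274, 1252 and 925 FPKM with DMSO (log2 change -0.52 ± 0.31, adjusted p = 0.283). Neither was called on either scale, although the XBP1 groups did not overlap as deposited. MAF was not called as deposited (0.12 ± 0.26, adjusted p = 0.824) and was higher after rescaling (0.58, adjusted p = 0.00503). MYC held 18.7, 15.3 and 9.04 FPKM with YKL-5-124, against 45.1, 40.2 and 18.9 FPKM with DMSO and fell by 1.18 ± 0.34 (adjusted p = 0.0273), with replicate 3 lowest in both groups; it was not called after rescaling (-0.74, adjusted p = 0.0545). It was not called without YKL-5-124 replicate 2 or 3 or DMSO replicate 1 or 2 (adjusted p = 0.0563 to 0.152) either. Of the 11 genes of the MYC network, MYC was the 1 lower as deposited (9.09%, against 10.0% of all genes), and 1 was higher and 0 lower rescaled.

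Some other lineage factors fell. ETS1 held 4.86, 4.98 and 3.87 FPKM with YKL-5-124, against 14.1, 14.7 and 8.89 FPKM with DMSO (log2 change -1.26 ± 0.26, adjusted p = 0.00411). BHLHE40 held 0.366, 1.304 and 0.4697 FPKM with YKL-5-124, against 3.49, 3.505 and 2.45 FPKM with DMSO (log2 change -1.30 ± 0.28, adjusted p = 0.00584). POU2AF1, the coactivator of octamer factors in B cells, held 65.4, 52.6 and 63.8 FPKM with YKL-5-124, against 134, 123 and 121 FPKM with DMSO (log2 change -1.05 ± 0.29, adjusted p = 0.0234). Of 35 transcription factors, 10 were lower and 0 higher as deposited and 5 lower and 2 higher rescaled (medians -0.56 and -0.15). Among all genes 10.0% were lower as deposited, and 7.22% lower and 8.25% higher rescaled. Leaving out a single library gave 3 to 6 lower genes, 3 without DMSO replicate 2, and 6 without both libraries with scattered spike-ins. POU2AF1 was not called without YKL-5-124 replicate 2 or 3 or DMSO replicate 1 or 2 (adjusted p = 0.0615 to 0.0927). Of 6 genes that mark the MM1S line, 3 were lower as deposited, among them NUAK1, a kinase (-0.81 ± 0.24, adjusted p = 0.0354), and of 3 genes that mark H929, WHSC1, its translocated methyltransferase gene, was lower (-0.82 ± 0.26, adjusted p = 0.0471). NUAK1 was not called without YKL-5-124 replicate 2 or 3 or DMSO replicate 1, 2 or 3 (adjusted p = 0.0789 to 0.15), and WHSC1 not with any 1 of the 6 libraries left out (adjusted p = 0.0777 to 0.143).

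On the cell surface, chemokine receptors were among the called genes. CCR1, a receptor of CCL3, held 17.3, 15.1 and 18.98 FPKM with YKL-5-124, against 56.5, 60.2 and 57.4 FPKM with DMSO (log2 change -1.71 ± 0.28, adjusted p = 0.000625; rescaled -1.25). CCR2 held 9.07, 8.68 and 5.62 FPKM with YKL-5-124, against 13.98, 13.5 and 15.4 FPKM with DMSO, CXCR4, the homing receptor, held 37.4, 29.8 and 38.9 FPKM with YKL-5-124, against 61.03, 68.7 and 60.7 FPKM with DMSO, and IL6R, of the growth factor IL-6, held 58.7, 50.1 and 56.8 FPKM with YKL-5-124, against 103, 100.1 and 102 FPKM with DMSO. Their log2 changes were -0.82 ± 0.22, -0.83 ± 0.26 and -0.88 ± 0.27, and after rescaling only IL6R of these 3 was called (adjusted p = 0.02). CD86, a costimulatory ligand, rose: it held 2.73, 3.52 and 2.28 FPKM with YKL-5-124, against 1.91, 1.64 and 0.751 FPKM with DMSO (log2 change 0.68 ± 0.22, adjusted p = 0.0471). Of 30 surface and secretion genes, 5 were lower and 1 higher as deposited and 3 lower and 1 higher rescaled. Of all genes, 10.0% were lower and 0.926% higher as deposited, and 7.22% lower and 8.25% higher rescaled. With a single library left out 1 to 2 were lower and 0 higher as deposited, so that CD86 was not called as deposited with any 1 of the 6 libraries left out (adjusted p = 0.0512 to 0.204), while 1 gene was higher in each such fit rescaled. Without both libraries with scattered spike-ins 2 were lower and 0 higher. The lowest number of lower genes came without YKL-5-124 replicate 3 or DMSO replicate 1 or 3. CCR2 was not called without YKL-5-124 replicate 3 or DMSO replicate 1 or 3 (adjusted p = 0.0563 to 0.114), IL6R not with any 1 of the 6 libraries left out (adjusted p = 0.0635 to 0.121), and CXCR4 not with any 1 of the 6 libraries left out (adjusted p = 0.0726 to 0.159); on the rescaled values IL6R was not called without YKL-5-124 replicate 1 or 2 or DMSO replicate 3 (adjusted p = 0.06 to 0.0978).

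Among p53 targets 3 were lower as deposited, a share near that of all genes. PLK2 fell by 1.18 ± 0.27, PTP4A1, a phosphatase, by 1.22 ± 0.33 and AEN, a nuclease, by 0.97 ± 0.29. After rescaling SESN2, DDB2, FDXR, TIGAR and BTG2 were higher. TIGAR was not called without YKL-5-124 replicate 2 or DMSO replicate 2 (adjusted p = 0.0506 to 0.0727). SESN2, a stress-induced brake of mTORC1, held 15.7, 12.8 and 13.00 FPKM with YKL-5-124, against 11.03, 11.7 and 8.35 FPKM with DMSO (rescaled 0.83, adjusted p = 4.01e-05). Of 34 p53 targets, 3 were lower and 0 higher as deposited, and 3 lower and 5 higher rescaled. Those lower were 8.82%, against 10.0% of all genes as deposited, and those higher rescaled were 14.7%, against 8.25%. PLK2 was not called without YKL-5-124 replicate 2 (adjusted p = 0.0508), PTP4A1 not without YKL-5-124 replicate 2 or 3 or DMSO replicate 1 or 3 (adjusted p = 0.0631 to 0.0784), and AEN not with any 1 of the 6 libraries left out (adjusted p = 0.0745 to 0.0983); without YKL-5-124 replicate 2, or without both libraries with scattered spike-ins, 0 of the list were lower.

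MCL1, the survival factor of myeloma cells with a short-lived transcript, held 297, 281 and 254 FPKM with YKL-5-124, against 239.9, 234 and 202 FPKM with DMSO. All 3 YKL-5-124 libraries were above the DMSO libraries, but the change of 0.30 ± 0.26 was not called as deposited (adjusted p = 0.492) and was called after rescaling (0.77, adjusted p = 3.61e-06). BCL2L11 (BIM), a killer protein that MCL1 binds, held 10.3, 8.64 and 10.6 FPKM with YKL-5-124, against 16.3, 21.7 and 26.5 FPKM with DMSO and fell by 1.03 ± 0.26 (adjusted p = 0.0129; rescaled adjusted p = 0.0535). CFLAR, a caspase inhibitor, fell by 0.90 ± 0.26 (adjusted p = 0.0308). Of 21 genes of BCL2 and the inhibitors of apoptosis, 3 were lower and 0 higher as deposited, and 2 lower and 3 higher rescaled (14.3% lower as deposited, against 10.0% of all genes). From 1 to 3 genes were lower with a single library left out and 1 without YKL-5-124 replicate 2. BCL2L11 was not called without YKL-5-124 replicate 2 or DMSO replicate 3 (adjusted p = 0.059 to 0.0621), and CFLAR not without YKL-5-124 replicate 2 or 3 or DMSO replicate 1 or 2 (adjusted p = 0.0941 to 0.133).

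Lists of stress and metabolism held some genes that fell. DDIT4, an inhibitor of mTORC1, held 58.8, 48.05 and 45.8 FPKM with YKL-5-124, against 137, 147 and 114 FPKM with DMSO (log2 change -1.37 ± 0.30, adjusted p = 0.00669), and PSAT1, SLC38A2 and MTHFD2 of amino acid supply fell by 1.19 ± 0.28, 1.23 ± 0.29 and 1.18 ± 0.30. Of 31 genes of ATF4 and the amino acid response, 8 were lower and 0 higher as deposited, and 5 lower and 1 higher rescaled. Those lower numbered 1 to 5 with a single library left out, 1 without DMSO replicate 2, and 4 without both libraries with scattered spike-ins. PSAT1 was not called without DMSO replicate 2 (adjusted p = 0.0554), SLC38A2 not without DMSO replicate 2 (adjusted p = 0.0553), and MTHFD2 not without YKL-5-124 replicate 2 or 3 or DMSO replicate 1 or 2 (adjusted p = 0.0541 to 0.0794). HERPUD1, of the disposal of ER proteins, held 76.5, 59.4 and 61.98 FPKM with YKL-5-124, against 189, 189 and 171 FPKM with DMSO (log2 change -1.47 ± 0.27, adjusted p = 0.00164). It and CREB3L2 (-1.19 ± 0.29) were the 2 of 44 unfolded protein response genes lower as deposited, and 3 were lower and 5 higher rescaled. For both lists the shares of all genes were 10.0% lower as deposited, and 7.22% lower and 8.25% higher rescaled. CREB3L2 was not called without YKL-5-124 replicate 2 or DMSO replicate 2 (adjusted p = 0.0506 to 0.0544).

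SQLE, a rate-limiting enzyme of cholesterol synthesis, held 1.08, 1.87 and 2.21 FPKM with YKL-5-124, against 5.42, 4.91 and 4.81 FPKM with DMSO (log2 change -1.17 ± 0.26, adjusted p = 0.00692). INSIG1, which restrains the pathway, fell by 1.15 ± 0.26 and ACAT2 by 1.25 ± 0.40, and these 3 were the lower genes among 27 as deposited (11.1%, near the 10.0% of all genes; 2 lower and 2 higher rescaled). INSIG1 was not called without DMSO replicate 1 (adjusted p = 0.0533), and ACAT2 not with any 1 of the 6 libraries left out (adjusted p = 0.0538 to 0.205). In glycolysis and the hypoxia response, 4 of 35 were lower as deposited (11.4%) and 3 lower and 2 higher rescaled. Besides ANKRD37 these were PDK1, a brake on pyruvate oxidation (49.9, 43.2 and 50.5 FPKM with YKL-5-124, against 116, 108 and 104 FPKM with DMSO; log2 change -1.18 ± 0.29), PGAM1 (-1.33 ± 0.36) and LDHA (-1.02 ± 0.32). PDK1 was not called without YKL-5-124 replicate 2 or DMSO replicate 1 (adjusted p = 0.0563 to 0.0577), PGAM1 not without YKL-5-124 replicate 3 or DMSO replicate 1 or 2 (adjusted p = 0.0712 to 0.148), and LDHA not with any 1 of the 6 libraries left out (adjusted p = 0.0794 to 0.144).

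Interferon, antigen and proteasome genes were lower in shares of 7.41%, 5.26% and 2.63% as deposited, against 10.0% of all genes. MX1 and SAMD9L were the 2 of 27 interferon-stimulated genes lower as deposited, by 0.85 ± 0.27 and 0.61 ± 0.18, and 2 others were higher rescaled. HLA-F was the 1 of 19 antigen presentation genes lower as deposited (-1.23 ± 0.30, adjusted p = 0.0127), with 2 higher and 1 lower rescaled. PSMA3 was the 1 of 38 proteasome genes lower as deposited (-0.97 ± 0.31, adjusted p = 0.0477), and 1 was higher rescaled. SAMD9L was not called without YKL-5-124 replicate 1 or 3 or DMSO replicate 1 or 3 (adjusted p = 0.0648 to 0.14), MX1 not without YKL-5-124 replicate 2 or 3 or DMSO replicate 1 or 2 (adjusted p = 0.142 to 0.208), HLA-F not without YKL-5-124 replicate 3 (adjusted p = 0.083), and PSMA3 not with any 1 of the 6 libraries left out (adjusted p = 0.0627 to 0.144). Of 6 metallothionein and zinc genes, 0 were called on either scale. MT2A held 6.38, 12.99 and 6.12 FPKM with YKL-5-124, against 19.4, 31.5 and 3.52 FPKM with DMSO and SLC30A1, a zinc exporter, held 9.99, 9.08 and 5.200 FPKM with YKL-5-124, against 13.9, 15.1 and 12.7 FPKM with DMSO (adjusted p = 0.491 and 0.0872), with overlapping groups for MT2A.

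Chromatin enzymes were lower in about the same share as all genes. DNMT1, the maintenance DNA methyltransferase, held 22.3, 15.2 and 18.3 FPKM with YKL-5-124, against 47.3, 44.3 and 43.4 FPKM with DMSO (log2 change -1.25 ± 0.30, adjusted p = 0.0112). The acetyltransferase genes CREBBP and KAT6B fell by 0.83 ± 0.21 and 0.98 ± 0.27, and EED, of the Polycomb complex, by 1.03 ± 0.27. Of 72 chromatin enzymes, 7 were lower and 0 higher as deposited, and 7 lower and 6 higher rescaled. Those lower were 9.72% on each scale, against 10.0% of all genes as deposited and 7.22% rescaled. The number lower was 1 to 6 with a single library left out, 1 without YKL-5-124 replicate 2 or DMSO replicate 1, and 1 without both libraries with scattered spike-ins. DNMT1 was not called without YKL-5-124 replicate 2 (adjusted p = 0.0565), CREBBP not without YKL-5-124 replicate 2 or 3 or DMSO replicate 1 or 3 (adjusted p = 0.0552 to 0.0677), EED not without YKL-5-124 replicate 2 or 3 or DMSO replicate 1 or 2 (adjusted p = 0.0585 to 0.0845), and KAT6B not without YKL-5-124 replicate 3 or DMSO replicate 1 or 3 (adjusted p = 0.0689 to 0.12). Of 38 clustered histone genes, 2 were higher and 2 lower as deposited, and 3 were higher and 0 lower rescaled. For both lists, the shares of all genes higher were 0.926% as deposited and 8.25% rescaled. The rescaled numbers higher lay near that share in both. HIST1H2BK, known to give polyadenylated transcripts as well, held 18.6, 14.3 and 15.1 FPKM with YKL-5-124, against 9.46, 8.297 and 8.92 FPKM with DMSO (log2 change 0.78 ± 0.21, adjusted p = 0.0225), and HIST1H4B was near the lowest listed values in every DMSO library. HIST1H4C fell by 1.03 ± 0.28 and HIST2H2BF by 1.23 ± 0.38, both as deposited only. HIST1H2BK was not called without YKL-5-124 replicate 1 or 3 or DMSO replicate 1, 2 or 3 (adjusted p = 0.0546 to 0.0847), HIST1H4C not without YKL-5-124 replicate 2 or 3 or DMSO replicate 2 or 3 (adjusted p = 0.0543 to 0.0937), HIST1H4B not with any 1 of the 6 libraries left out (adjusted p = 0.0583 to 0.179), and HIST2H2BF not without YKL-5-124 replicate 1, 2 or 3 or DMSO replicate 1 or 3 (adjusted p = 0.0748 to 0.168).

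Genes of the lysosome and of the respiratory chain were called on the rescaled values for the most part. Of 48 lysosome and autophagy genes, 0 were called as deposited, with a median log2 change of -0.10. Rescaled, 12 were higher and 0 lower, with a median of 0.30. The shares of all genes, for this list and the next, were 10.0% lower as deposited, and 8.25% higher and 7.22% lower rescaled. PSAP, which activates lysosomal hydrolases, held 625, 571 and 567 FPKM with YKL-5-124, against 649, 624 and 522 FPKM with DMSO (log2 change -0.02 ± 0.30, adjusted p = 0.986; rescaled 0.45, adjusted p = 0.0255), which was not called without YKL-5-124 replicate 1, 2 or 3 or DMSO replicate 2 or 3 (adjusted p = 0.0511 to 0.076). GABARAP, of the autophagosome, held 398, 350.3 and 394 FPKM with YKL-5-124, against 387, 401 and 373 FPKM with DMSO (log2 change -0.03 ± 0.27, adjusted p = 0.979; rescaled 0.44, adjusted p = 0.0111). The rescaled number higher was 6 to 9 with a single library left out, 6 without YKL-5-124 replicate 2 or 3. Of 58 genes of the respiratory chain and ATP synthase, SDHD was the 1 lower as deposited (-1.04 ± 0.30, adjusted p = 0.028), and 12 were higher and 1 lower rescaled (medians -0.21 and 0.26). Here the number higher was 2 to 10, 2 without YKL-5-124 replicate 3. SDHD was not called without YKL-5-124 replicate 3 or DMSO replicate 1 or 2 (adjusted p = 0.0989 to 0.149).

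**Figure D4:**
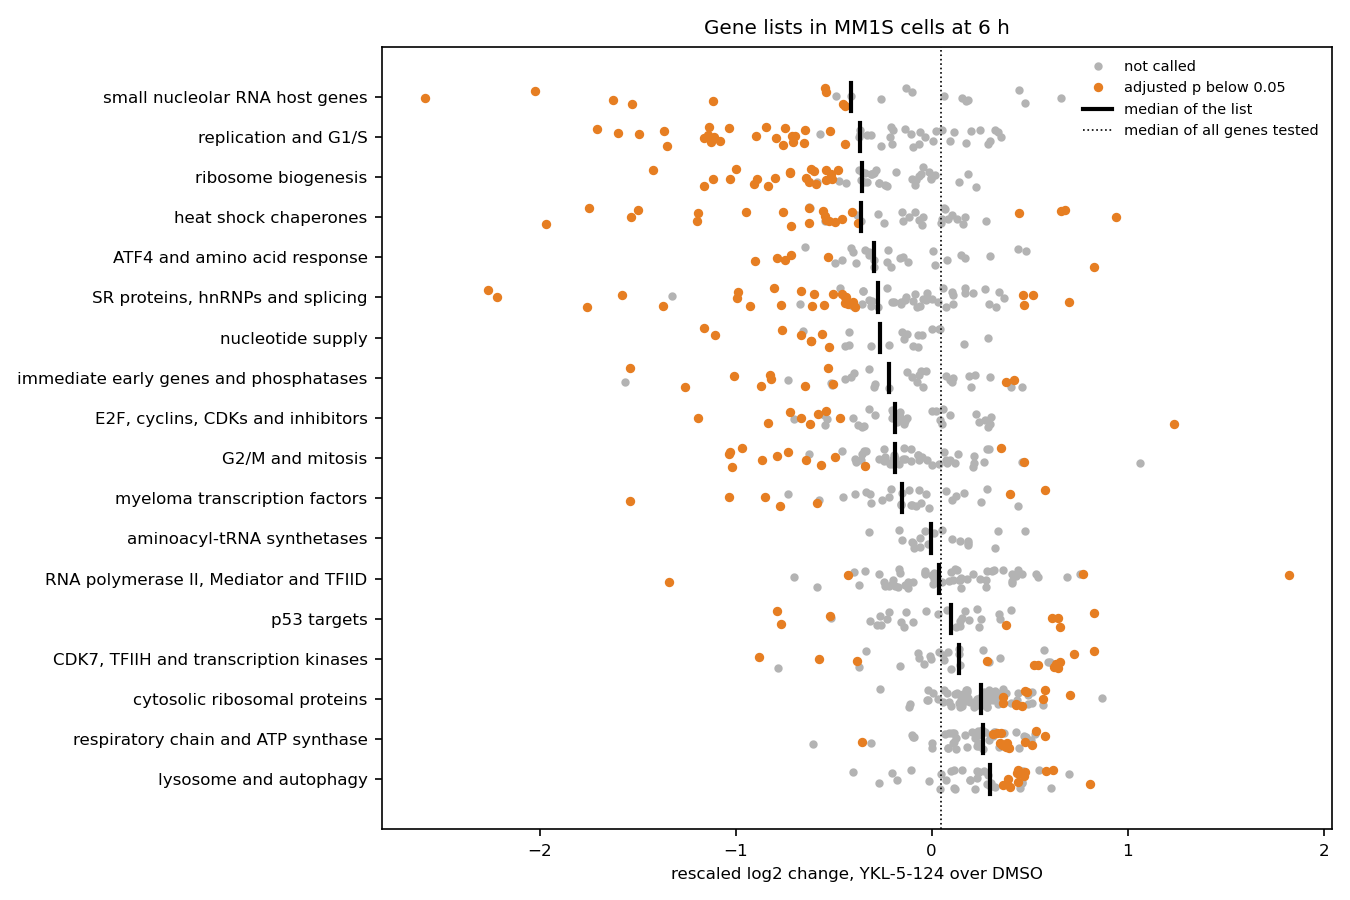
Rescaled log2 change (YKL-5-124 over DMSO) of each tested member of 18 gene lists, 1 point per gene, coloured where the adjusted p was below 0.05, with the list's median as a bar and the median of all 12418 genes as a dotted line. The list medians run from -0.41 for the host genes of small nucleolar RNAs to 0.30 for lysosome and autophagy genes.

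The same contrast was measured in H929 at 6 h and in MM1S at 24 h, each against DMSO libraries of its own. In H929 2.19% of all genes were called as deposited and 9.28% rescaled, and in MM1S at 24 h 7.46% and 27.8%. The response of MM1S at 6 h minus that of H929 at 6 h differed from 0 for 21 genes as deposited (0.169%) and for 141 rescaled (1.14%), where MM1S was lower for 90 (0.725%) and higher for 51 (0.411%). After rescaling, 287 genes were lower in both lines, which is 32.0% of those lower in MM1S and 55.2% of those lower in H929. Another 238 were higher in both (23.2% and 37.6%), and 7 were called in opposite directions. The count of 21 was 4 without YKL-5-124 replicate 3, and 0, 10 or 4 without DMSO replicate 1, 2 or 3 of MM1S.

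The rescaled response was lower in MM1S than in H929 for 5 of 54 replication genes, 4 of 67 splicing genes and 3 of 47 chaperones, against 0.725% of all genes, and higher for 0, 1 and 1 of them. PCNA had a rescaled log2 change of -1.60 in MM1S and 0.01 in H929 (difference -1.61, adjusted p = 0.0125). CDC6 had -1.11 in MM1S and -0.09 in H929 (adjusted p of the difference 0.00125), and MCM6 had -1.14 in MM1S and -0.05 in H929 (adjusted p of the difference 0.00198). SRSF3 fell in both lines, with -2.26 in MM1S and -0.89 in H929 (adjusted p of the difference 4.04e-05). Genes named for a small p in MM1S were chosen on libraries that also enter this difference. That choice favours a larger fall in MM1S. HSPA1B had -1.50 in MM1S and 0.22 in H929, and its difference was called as deposited too (adjusted p = 0.0232), but not without DMSO replicate 1 of MM1S. Of the 54 replication genes, 24 were lower in MM1S and 2 in H929, and of the 47 chaperones 19 and 3, while 21 of 52 ribosome assembly genes were lower in MM1S and 23 in H929. Over all 12418 genes, 896 were lower in MM1S and 520 in H929 after rescaling.

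After rescaling 5 of 34 p53 targets were higher in MM1S and 15 in H929, with medians of 0.10 and 0.46. Over all 12418 genes, 1024 were higher in MM1S and 633 in H929. The response was lower in MM1S for 8 of the 34, among them CDKN1A with 0.24 in MM1S and 1.13 in H929 (adjusted p of the difference 0.0377). SESN1 had 0.35 in MM1S and 1.48 in H929 (adjusted p of the difference 0.0125), and PLK3 had -0.32 in MM1S and 1.24 in H929 (adjusted p of the difference 0.00658). XBP1 had -0.05 in MM1S and -1.15 in H929 (adjusted p of the difference 0.00156). Dose differed between the lines on the labels (98 and 83 nM), so line and dose cannot be told apart.

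Against MM1S at 24 h, 10 genes differed as deposited (0.0805%) and 1315 rescaled (10.6%), of which 535 were lower (4.31%) and 780 higher (6.28%) at 6 h. Of those lower at 6 h after rescaling, 415 were lower at 24 h as well (46.3% of the 6 h genes and 25.1% of the 24 h genes). Another 476 were higher at both times (46.5% and 26.6%), and 63 were called in opposite directions. Over all 12418 genes, 896 were lower at 6 h and 1655 at 24 h, and 1024 and 1791 were higher. Of 54 replication genes 24 were lower at 6 h and 41 at 24 h, with medians of -0.37 and -1.45, and the response was higher at 6 h for 29. Of 59 mitotic genes 11 were lower at 6 h and 55 at 24 h. Of 52 ribosome assembly genes 21 were lower at 6 h and 11 at 24 h. Ribosomal protein genes were higher for 10 of 78 at 6 h and lower for 39 at 24 h, and the times differed for 37. The count of 10 was 16 or 1 without YKL-5-124 replicate 1 or 2 and 3 or 6 without DMSO replicate 2 or 3.

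**Figure D5:**
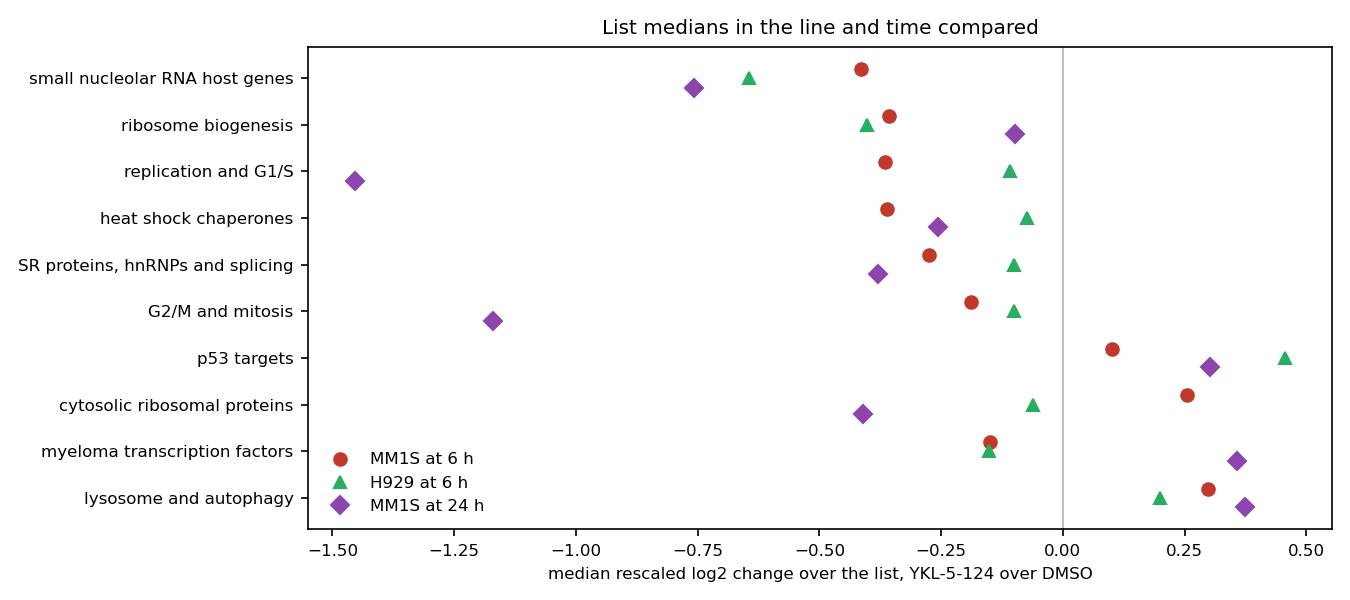
Median rescaled log2 change (YKL-5-124 over DMSO) over 10 gene lists, in MM1S at 6 h (circles), H929 at 6 h (triangles) and MM1S at 24 h (diamonds). The replication list had medians of -0.37, -0.11 and -1.45, and the p53 list of 0.10, 0.46 and 0.30.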

How the data were processed

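RNA of MM1S cells was read as QuantSeq 3′ libraries. Per the submitters' processing notes, reads were handled with HISAT2 and Cuffnorm on hg19; the versions are not given in the sources used here. The deposited file of each library has 1 column of values, named only as expression; they were taken as FPKM because Cuffnorm writes that unit, and the authors' scaling to spike-ins was inferred from their common ERCC level. FPKM divides by transcript length, which 3′ reads do not need, so levels are not compared between genes. No value was 0, and read depth is unknown.

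Of 26249 genes, the 12418 with at least 1 FPKM in at least 3 of 24 libraries were tested on log2(FPKM + 1) with limma 3.58.1 in R 4.3.3 (trend, 8 group means fitted to all libraries, Benjamini-Hochberg, called below 0.05). Fold changes on this scale understate the change of low genes. Rescaling used the median ratio to the geometric mean over genes of at least 5 FPKM. Single values were compared with exact permutation tests. The pipeline was tested on simulated data. Replicate numbers did not pair the libraries. Named genes were the 12 largest rises and 12 largest falls among genes called on both scales without overlap and of at least 5 FPKM in the higher group (unnamed loci and small RNAs left out), up to 4 called genes of smallest p of each list or else the 2 of highest mean, and 11 preset genes; 1 gene so named is not reported here. The members and lists were chosen with earlier results of these data known, and some genes are given outside this rule as examples chosen after their values were seen. Alternatives were other pseudocounts, filters, sets of libraries, a replicate block, array weights and each library left out.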

Additional observations from a re-analysis of the deposited data

Results flagged for a closer look

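These results were set apart because the response of MM1S at 6 h differed from that of H929 at 6 h, or from that of MM1S at 24 h, in a test of the difference itself (limma, Benjamini-Hochberg adjusted over 12418 genes). Values are differences of log2 changes, MM1S at 6 h minus the other, so that a negative one means a lower response in MM1S at 6 h. The line and the labelled dose cannot be told apart. Genes named for a large change or a small p in MM1S at 6 h were chosen on libraries that also enter the differences. That choice favours a larger response in MM1S at 6 h.

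Against H929, the rescaled response was lower in MM1S for 5 of 54 replication genes and 1 of 26 genes of nucleotide supply, against 0.725% of all genes. The difference was -1.61 for PCNA (adjusted p = 0.0125), -1.16 for MCM4 (adjusted p = 0.00942), -1.09 for MCM6 (adjusted p = 0.00198) and -1.02 for CDC6 (adjusted p = 0.00125). It was -0.997 for POLD1 (adjusted p = 0.0202) and -0.77 for RRM2 (adjusted p = 0.0125), the last of nucleotide supply. Some genes of RNA processing and the nucleolus differed in the same direction, by -1.38 for SRSF3 (adjusted p = 4.04e-05), -1.82 for LSM6 (adjusted p = 0.0125), -1.15 for FUBP1 (adjusted p = 0.0157) and -0.97 for HNRNPD (adjusted p = 0.00151). The host gene and nucleolin differences were -1.25 for SNHG3 (adjusted p = 0.00318) and -0.604 for NCL (adjusted p = 0.0136). The chaperone differences were -1.72 for HSPA1B (adjusted p = 0.000255), -1.57 for DNAJB1 (adjusted p = 0.00658) and -1.03 for CHORDC1 (adjusted p = 0.0377), and that of HSPA1B as deposited was -1.98 (adjusted p = 0.0232). Without DMSO replicate 1 of MM1S all differences from H929 as deposited lost their call.

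The rescaled response was also lower in MM1S for 8 of 34 p53 targets, against 0.725% of all genes. The difference was -1.75 for GADD45A (adjusted p = 0.0265), -1.55 for PLK3 (adjusted p = 0.00658), -1.13 for SESN1 (adjusted p = 0.0125) and -0.95 for POLH (adjusted p = 0.00658). It was -0.95 for TNFRSF10B (adjusted p = 0.0125), -0.88 for CDKN1A (adjusted p = 0.0377), -0.82 for SESN2 (adjusted p = 0.0125) and -0.76 for TP53INP1 (adjusted p = 0.0327). PLK3 differed as deposited as well, by -1.71 (adjusted p = 0.0323), a call lost without DMSO replicate 1 of MM1S. WHSC1, which the H929 translocation drives, differed by -0.88 rescaled (adjusted p = 0.00156). A higher response in MM1S was seen after rescaling for 3 of the 12 largest rises, with 1.93 for CEACAM21 (adjusted p = 0.00114), 1.69 for VAMP5 (adjusted p = 0.0125) and 1.64 for LAMB2P1 (adjusted p = 0.00942). The 12 were chosen for large rises in these MM1S libraries, which favours a higher response there. The difference was also positive for XBP1, CCL3 and MCL1, with 1.101 for XBP1 (adjusted p = 0.00156), 0.66 for CCL3 (adjusted p = 0.0136) and 0.601 for MCL1 (adjusted p = 0.0125). For CCL3 this was a smaller fall, -1.35 in MM1S and -2.01 in H929. XBP1 was not called in MM1S and was lower in H929, with -0.05 in MM1S and -1.15 in H929. MCL1 had 0.77 in MM1S and 0.17 in H929.

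Against MM1S at 24 h, the differences named here are those called as deposited. They were 2.34 for SCG5 (adjusted p = 0.0253), 2.200 for CENPM (adjusted p = 0.0253) and 2.005 for CDC45 (adjusted p = 0.0225), which were higher at 6 h. They were -2.47 for DUSP5 (adjusted p = 0.0178), -2.11 for HIST1H2BK (adjusted p = 0.00489) and -1.76 for CHORDC1 (adjusted p = 0.0454), which were lower at 6 h. These calls rested on single libraries of MM1S at 6 h. Of all genes, 10 differed from 24 h as deposited. That count was 1 without treated replicate 2, so at most 1 of the named differences kept its call there. It was 3 or 6 without DMSO replicate 2 or 3, and 16 without treated replicate 1. With the replicate number as a block it was 0. No group held enough libraries for a test of single outlying libraries.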

How the results depend on the processing

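Both alternative pseudocounts and the fit without trend kept all 4 counts of genes within 1.5 times, and spike-in rescaling kept the 2 as deposited. Spike-in rescaling could change little, since the deposited values already shared a spike-in level. Its factors were 1.01 to 1.03 with YKL-5-124 and 0.987 to 1.06 with DMSO. As deposited, the higher genes numbered 15 with only genes of a mean of at least 5 FPKM, 276 with array weights (whose estimate stopped before it converged), 50 without both libraries with scattered spike-ins (an alternative chosen after seeing the data), 49 to 107 with 1 library left out, and 1024 after rescaling. The lower genes numbered 730 with no filter, 2790.0 in a fit of the 6 libraries alone, 4275 with array weights, 614 without both scattered libraries and 460.0 to 920.0 with 1 library left out. Rescaled, the higher genes numbered 681 with the mean filter, 468 in the 6 libraries alone, 443 in the 12 MM1S libraries, 1607 with array weights and 625 to 959 with 1 library left out, and the lower genes 535, 481 and 606 to 796 in the 6, the 12 and with 1 left out. Genes that differed from H929 numbered 5 with the mean filter, 0 to 28 with 1 library left out and 141 rescaled, and from MM1S at 24 h 23, 1 to 16 and 1315. With the replicate number as a block, 792 genes were lower and 91 higher as deposited (741 and 786 rescaled), 8 differed from H929 and 0 from 24 h; the numbers did not pair the libraries, since same-numbered libraries correlated at -0.0123, -0.0291 and -0.107, and replicate 3 with YKL-5-124 went best with DMSO replicate 2 (0.143). Of 113 named called genes, 59 were called in every setting and 0 changed direction. Sign changed only for named genes that were not called as deposited. Rescaling gave 0.366 for RPLP1, 0.448 for PSAP, 0.443 for GABARAP, 0.0220 for CR2 (a B cell marker), 0.169 for CD68 (a monocyte marker), 0.140 for CDK7, 0.163 for IRF4 and 0.244 for CDKN1A. Array weights gave -0.118 for RPS28, 0.0809 for CD3G, 0.0796 for CD68 and -0.0268 for MAF, and leaving out both scattered libraries gave 0.0323 for GABARAP. With 1 library left out the log2 change was -0.219 to 0.154 for RPS28, -0.117 to 0.0400 for PSAP, -0.0588 to 0.0323 for GABARAP, -0.433 to 0.223 for CD3G, -0.232 to 0.177 for CD68, -0.484 to 0.149 for CDK7 and -0.147 to 0.265 for MAF. The cause of these shifts was not tested. Depth is unknown, so no counting error can be given, and values near the listed floor of about 0.1 FPKM carry little weight.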
